A study of Mus musculus with 2 samples.

Results

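The cytosolic ribosomal protein genes were described in total RNA from mouse forebrain at embryonic day 10.5 (strain B6NCrl, male and female embryos pooled). They were taken as the protein-coding genes whose symbol is Rpl or Rps with a number, plus Rpsa, Rplp0, Rplp1 and Rplp2, without the ribosomal protein S6 kinases. The rule found 83 genes among 21474 protein-coding gene rows and 43346 rows with an Ensembl gene identifier. Of these, 77 are canonical genes, 46 of the large and 31 of the small subunit, and 6 are paralogues (Rpl3l, Rpl7l1, Rpl10l, Rpl22l1, Rpl39l and Rps27l). Another 5 rows with a fitting symbol (Rps3a2, Rps3a3, Rps4l, Rps12l1 and Rpl6l) are annotated as pseudogenes and were not members. Fau and Rack1, which also encode ribosomal proteins, fall outside the rule by their names. The series holds 1 group of 2 libraries. Forebrains of 69 embryos were pooled for replicate 1 and of 51 embryos for replicate 2, and the labels give 10 ng of RNA for each. A pooled value is an average over embryos, and nothing in it separates fewer cells of a type from less RNA per cell.

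With a single group there was no contrast between conditions, and 2 libraries allow no test: a sign-flip permutation test of 2 values cannot go below p = 0.5. Levels are therefore given per library, or as a mean with the SD of the 2 libraries. Replicate 1 had 41537304 expected counts over the Ensembl gene rows, and replicate 2 had 38012457. The forebrain markers Lhx2, Emx2, Six3, Otx2 and Pax6 were all at 1 TPM or more in both libraries. None of the 4 Hox genes checked (Hoxa2, Hoxb1, Hoxa3 and Hoxb4) reached that level, and their summed level was 0.02 TPM in replicate 1 and 0.09 TPM in replicate 2. All 5 mesenchyme, 4 endothelial and 3 macrophage markers checked did reach it. The mesenchyme markers, Col3a1 highest, summed to 428 TPM in replicate 1 and 423 TPM in replicate 2. The levels given here are therefore those of all cells in the pooled tissue.

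A ribosome is built from a large and a small subunit, each a core of ribosomal RNA covered by many proteins, nearly all present in a single copy. The small subunit reads the mRNA, and the large subunit forms peptide bonds and lets the growing chain out through a tunnel. Their mRNAs are among the most abundant in growing cells. In mammals most of them begin with a C and an unbroken run of pyrimidines, the 5′ terminal oligopyrimidine (TOP) motif, through which mTOR signalling sets their translation. Ribosomal protein mRNAs have also been copied back into the mammalian genome many times, which left processed pseudogenes that resemble the mature mRNA.

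The TOP motif is the sequence that marks this gene family, so the start windows are shown for the 6 members of highest level that carry it at the annotated start. Each window has 30 bases, 15 before and 15 from the first transcribed base, from the RefSeq promoter table on GRCm38.p6, and the capitals mark the C at the start with the pyrimidines that follow it.
Rps18, chr17:33955651-33955680, minus strand: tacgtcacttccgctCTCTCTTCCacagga
Rplp2, chr7:141447636-141447665, plus strand: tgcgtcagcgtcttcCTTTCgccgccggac
Rpl38, chr11:114668565-114668594, plus strand: agcggaagcctcgttCTTTCCCCgttctct
Rpl35a, chr16:33056467-33056496, plus strand: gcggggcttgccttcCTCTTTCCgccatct
Rpl35, chr2:39005117-39005146, minus strand: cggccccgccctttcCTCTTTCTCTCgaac
Rps10, chr17:27635230-27635259, minus strand: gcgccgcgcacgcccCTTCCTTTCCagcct

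Windows were found for 63 of the 83 members, 57 of them canonical. Exactly at the annotated start, 13 of the 57 canonical genes (22.8%) had a C followed by 4 or more pyrimidines, against 3.06% of 9681 expressed protein-coding genes with a window and 3.01% of all 27025 genes in the promoter table. A gene with several annotated starts was counted if any of them matched, in every group alike. When the run could begin anywhere within 10 bases of the start, 34 of the 57 canonical genes (59.6%) had it, against 37.0% of the expressed protein-coding genes. Of 14 other TOP mRNA genes with a window, 4 matched exactly at the start, and 0 of 68 mitochondrial ribosomal protein genes did. Most canonical genes thus have no such run at the exact base where this table places their start.

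Other promoter motifs were searched on both strands in the whole window of 250 bases before and 50 bases after the start. CCGGAA, the core letters of ETS family sites, was found in 32 of 57 canonical genes (56.1%), against 31.8% of expressed protein-coding genes. Mitochondrial ribosomal protein genes had it at 57.4%. TATAAA was found in 6 of the 57 (10.5%), against 8.25% of expressed protein-coding genes. AAGATGGCG, letters bound by YY1, was found in 3 (5.26%), against 3.65%, and CACGTG, the E-box bound by MYC and related factors, in 6 (10.5%), against 11.8%. GGGCGG, the GC box, was found in 35 (61.4%), against 70.9%. Letters of different motifs may overlap, and a match is no evidence that a factor binds.

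All 77 canonical genes were expressed, and all but Rpl5 were above 100 TPM in both libraries. TPM is the deposited length-adjusted level, a share of all transcripts in the library. The canonical genes had a median of 777 ± 10.6 TPM (SD, n = 2), against 20.2 ± 0.198 TPM for the 12315 protein-coding genes at 1 TPM or more in both libraries. Even Rpl5, the lowest, stood above 83.7% of those genes. Members made up 37 of the 124 genes in the top 1% by mean TPM. The 83 members together held 6.40% ± 0.101 of all TPM, of which the paralogues held 0.119%. They held 2.59% ± 0.0180 of the expected counts of Ensembl gene rows, since their mRNAs are short. The canonical mRNAs had a median annotated length of 751 bases, against 2792.5 bases for expressed protein-coding genes. Both the 3′ untranslated region and the coding sequence were shorter: the medians were 57 bases, stop codon included, against 913 bases, and 456 against 1311 coding bases.

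**Figure D1:**
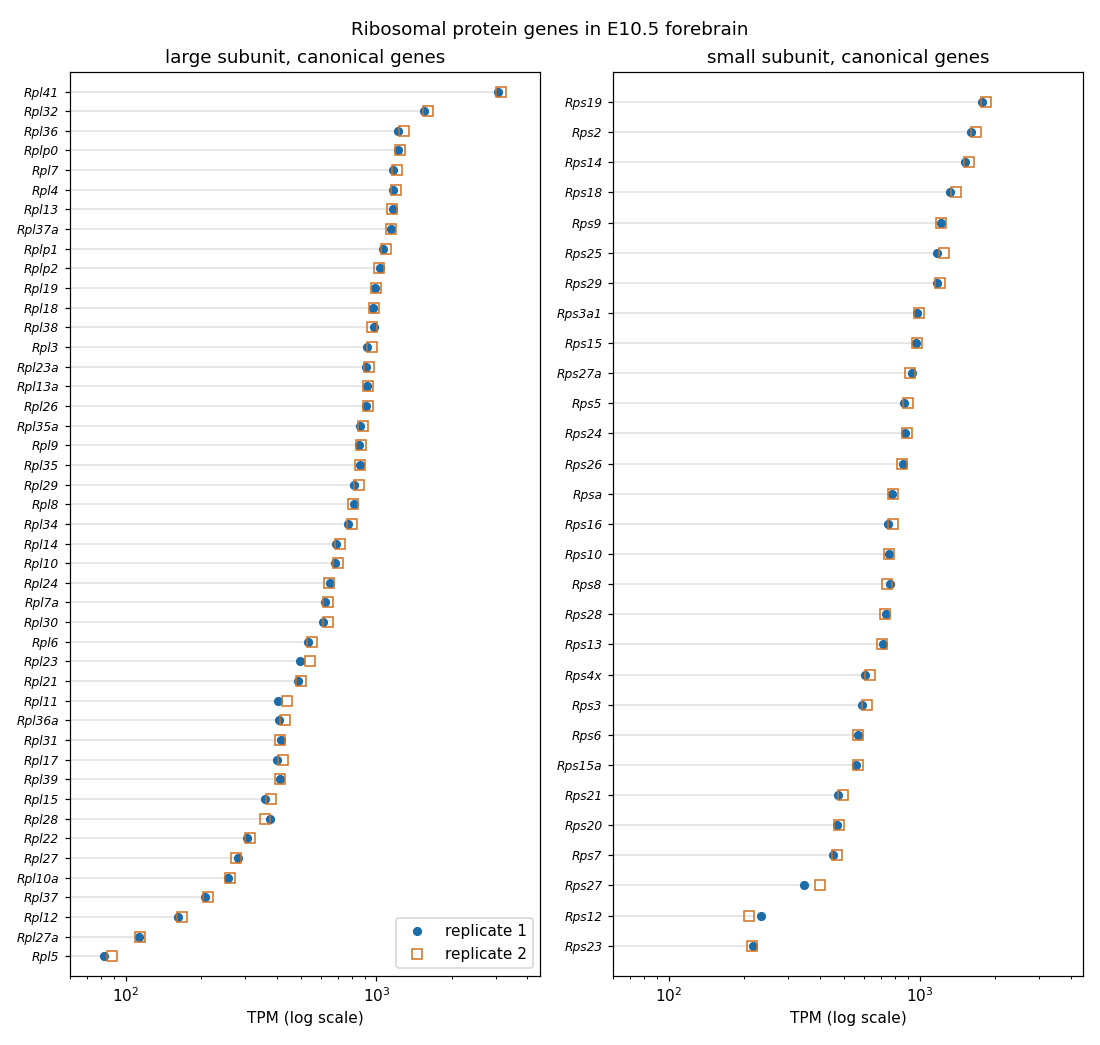
TPM (log scale) of the canonical genes reported here in replicate 1 (filled circles) and replicate 2 (open squares), with large-subunit genes on the left and small-subunit genes on the right, each ordered by mean TPM. The markers of the 2 libraries lie close together for nearly every gene, and Rpl41 and Rpl5 mark the ends of the range.

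Rpl41 was the highest member, with 3057 TPM in replicate 1 and 3133 TPM in replicate 2. It encodes a very small basic protein of the large subunit, and its coding sequence without the stop codon is printed whole from GENCODE M21 because so short a reading frame is unusual.
Rpl41, chromosome 10, 75 coding bases: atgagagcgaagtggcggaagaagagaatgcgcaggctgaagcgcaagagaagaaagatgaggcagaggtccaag
Other members of high level were Rps19 (1807 TPM, SD 40.0), Rps2 (1637 TPM, SD 53.5), Rpl32 (1574 TPM, SD 34.9), Rps14 (1545 TPM, SD 34.7), Rps18 (1362 TPM, SD 49.4), Rpl36 (1254 TPM, SD 54.3), Rplp0 (1231 TPM, SD 13.9) and Rps9 (1216 TPM, SD 5.89). Neighbours in this order such as Rplp0 and Rps9 were separated by about their own spread. The first 10 genes held 26.2% of the canonical TPM, and the last 10 held 3.54%. The order was nearly the same in the 2 libraries: 75 of the 77 canonical genes kept their rank within 3 places.

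At the low end, Rpl5 had 81.8 TPM in replicate 1 and 88.3 TPM in replicate 2. Rpl27a followed at 113 TPM, then Rpl12 at 164 TPM (SD 3.89), Rpl37 at 210 TPM (SD 3.71), Rps23 at 215 TPM (SD 0.417) and Rps12 at 221 TPM (SD 17.4). Next came Rpl10a at 259 TPM (SD 4.49), Rpl27 at 278 TPM (SD 3.69), Rpl22 at 310 TPM (SD 5.18) and Rpl28 at 368 TPM (SD 12.3). The highest canonical gene was 36.4-fold above the lowest. The SD of log2(TPM + 0.1) over the 77 genes was 0.92 in each library, against 0.84 over 77 mitochondrial ribosomal protein genes and 2.14 over expressed protein-coding genes. Reads of ribosomal protein genes can fit near-identical copies elsewhere in the genome, so the reads listed under such copies were compared with those of each member.

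The coding sequence of each member was matched to the annotated transcripts of the other protein-coding genes and pseudogenes with a row in the tables. Genes of other classes were not searched, and genes overlapping a member on its strand were left out. A copy was a gene outside the members, mostly a processed pseudogene, that matched at 90% identity or more over 50% or more of a member's coding sequence. There were 722 copies, 710 of them annotated as pseudogenes, and 73 of the 77 canonical genes had at least 1. Most had little signal: 236 had no count in either library, 147 were at 1 TPM or more in both and 28 were above 100 TPM in both. Together the copies held 1.68% of TPM in replicate 1 and 1.73% in replicate 2. Copies held 14.5% of the summed reads of members and copies in each library.

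The signal in copies was uneven among the members. For 25 canonical genes over 10% of the summed reads lay in copies, and for 28 genes under 1% did. Among the 20 canonical genes of lowest TPM, 14 had over 10% of their reads in copies. Among the 20 of highest TPM, 2 did, Rps29 and Rpl13. The share in copies has the member's own reads in its denominator, so it is tied to the member's level by construction. Copies held more reads than the member itself for 9 genes: Rpl5, Rps27, Rps23, Rpl27, Rpl27a, Rps12, Rpl12, Rpl15 and Rpl28.

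Rpl5, which carries the 5S ribosomal RNA into the large subunit together with Rpl11, had the greatest share in copies. Its gene (chromosome 5, 107900502 to 107909005 on the plus strand) had 2838 expected counts in the library of replicate 1, and 2682 in that of replicate 2. Gm15500, a pseudogene on chromosome 7 identical to the whole Rpl5 coding sequence, held 21088 and 19502. In TPM, Gm15500 was at 850 and 867, so Rpl5 with its 4 copies came to 932 TPM in replicate 1 and 955 TPM in replicate 2. Copies thus held 88.0% of the reads of this family.

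Other low members also had a copy of higher level. Rps23, a protein of the decoding centre, had 216 TPM in replicate 1 and 215 TPM in replicate 2, while Rps23-ps1 had 1194 and 1193. Rpl27 had 280 and 275 TPM, while its copies Gm11518 and Rpl27-ps3 averaged 653 and 554 TPM. Each of those 3 copies matched its gene at 100% identity. Rpl27a averaged 113 TPM and Gm7536 503 TPM, Rpl12 averaged 164 TPM and Gm10275 399 TPM, and Rpl15 averaged 370 TPM and Rpl15-ps3 1063 TPM. Rpl28 averaged 368 TPM and Rpl28-ps1 536 TPM, and Rps12 averaged 221 TPM and Rps12l1 361 TPM. Rpl37 averaged 210 TPM and Rpl37rt 675 TPM, although copies held no more reads than Rpl37 itself. Whether the copies themselves were transcribed, or received reads of the member that fit both, was not tested.

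Rps27 shows how little separates a member from its copy. Its closest copy, Rps27rt on chromosome 9, is annotated as protein-coding, and all 252 coding bases are identical to those of Rps27. Rps27l, a paralogue also on chromosome 9 and a known p53 target, is 76.2% identical, with no identical stretch longer than 11 bases. The first 90 coding bases are shown from GENCODE M21, with capitals where a base differs from Rps27.
Rps27, chromosome 3: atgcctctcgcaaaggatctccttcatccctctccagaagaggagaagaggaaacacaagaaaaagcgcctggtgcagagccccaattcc
Rps27rt, chromosome 9: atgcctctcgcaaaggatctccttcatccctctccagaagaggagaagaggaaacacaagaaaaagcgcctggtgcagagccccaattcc
Rps27l, chromosome 9: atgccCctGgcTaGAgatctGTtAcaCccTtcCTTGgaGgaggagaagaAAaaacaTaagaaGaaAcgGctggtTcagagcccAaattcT
In these 90 bases Rps27l differs from Rps27 at 24, and Rps27rt at none. Rps27 had 347 TPM in replicate 1 and 400 TPM in replicate 2, over an effective length of 156 bases, and Rps27rt had 798 and 826 TPM. The quantified model of Rps27 has 255 bases, against 345 bases for its mRNA in GENCODE M21. With copies, Rps27 averaged 1187 TPM, or 1785 TPM where the copies' reads were given the length of Rps27. Rps27l, which had no copy at 1 TPM or more, had 715 and 698 TPM.

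With copies added, the canonical genes lay closer together. The lowest sum was 311 TPM (Rpl22) and the highest 3095 TPM (Rpl41), a 9.95-fold range. The SD of log2 TPM was 0.62 over the sums, against 0.92 for the members alone, and was 0.64 where the copies' reads were given the member's own length. That last form matters for short pseudogene models: Gm14303, a copy of Rps29 with an effective length of 72 bases, had 1248 TPM from 2486 expected counts in replicate 1, more TPM than Rps29 itself from fewer reads. The mitochondrial genes were not given the same treatment, so their spread compares only with that of the members alone. Members and copies held 8.10% ± 0.131 of all TPM, a sum that holds every read of a copy.

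**Figure D2:**
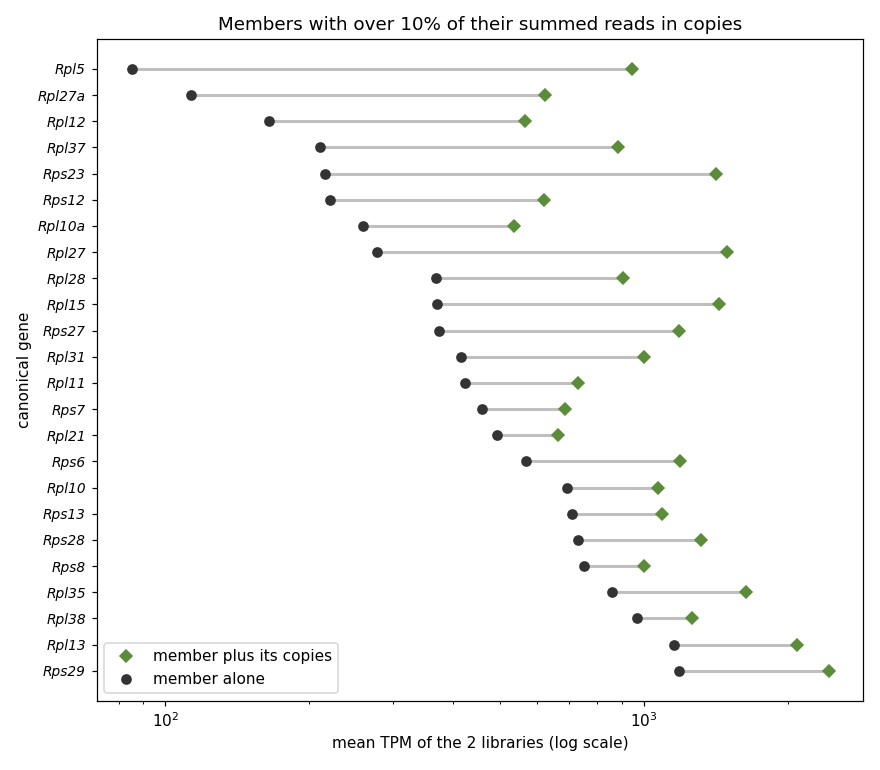
Mean TPM of the 2 libraries (log scale) for the canonical genes reported here with over 10% of their summed reads in copies: the member alone (circle) and the member plus its copies (diamond), ordered by the level alone. The longest line is that of Rpl5, from 85.0 to 944 TPM, and the sums lie between 535 TPM (Rpl10a) and 2437 TPM (Rps29).

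The deposited uncertainty of each count followed the same genes. The posterior SD of a count exceeded the square root of the count, which is the size of Poisson error, for 17 of the 80 members that passed the count minimum, and all 17 had over 10% of their reads in copies. The 5 highest ratios were those of Rpl10 (2.26), Rps27 (2.21), Rps6 (2.18), Rps12 (1.87) and Rpl13 (1.86), against a median of 0.241 over the 80 members. For Rps27 the posterior SD in replicate 1 was 5.74% of the count. The deposited interval, around a posterior mean of 341 TPM rather than the TPM used here, ran between 298 and 382 TPM. For Rpl4, a gene with a single weak copy, the posterior SD in replicate 1 was 0.00728% of the count. Rps6 and Rpl13, at 567 and 1159 TPM, had copies of their own (Rps6-ps4 at 623 TPM and Gm12918 at 934 TPM), each identical over the whole coding sequence.

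By function, the peptide stalk that recruits translation factors was represented by Rplp0 at 1231 TPM, Rplp1 at 1076 TPM (SD 16.9), Rplp2 at 1029 TPM (SD 4.03) and Rpl12, which anchors next to it, at 164 TPM alone and 564 TPM with copies. The acidic proteins Rplp1 and Rplp2, which enter the stalk as dimers, were not above Rplp0. Of the pair that carries 5S RNA and can bind Mdm2, Rpl11 had 405 TPM in replicate 1 and 442 TPM in replicate 2, so both of these genes were below the canonical median, Rpl5 by far. With copies the sums were 944 TPM for Rpl5 and 728 TPM for Rpl11.

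Around the peptidyl transferase centre and the exit tunnel, Rpl3 averaged 935 TPM (SD 31.0), Rpl8 811 TPM and Rpl10, which is added late in assembly, 691 TPM (SD 14.4). Rpl4, which lines the tunnel, averaged 1176 TPM (SD 22.0), and Rpl17 412 TPM (SD 16.8). Around the tunnel exit, Rpl19 averaged 993 TPM, Rpl23a 921 TPM, Rpl26 917 TPM, Rpl35 859 TPM, Rpl31 416 TPM, Rpl39 412 TPM and Rpl22 310 TPM. The 9 tunnel and exit genes thus covered a 3.80-fold range, with a median of 859 TPM. Rpl31 and Rpl35 had 45.1% and 41.3% of their summed reads in copies.

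Of the small-subunit proteins along the mRNA path, Rps2 (1637 TPM) and Rps14 (1545 TPM) were highest. Rps26 averaged 854 TPM (SD 4.16), Rpsa 780 TPM (SD 1.21), Rps28 728 TPM (SD 5.34) and Rps3 602 TPM (SD 17.1). Rps23 alone was lowest at 215 TPM, and the 7 genes covered a 7.60-fold range. Rps6, whose phosphorylation by the S6 kinases is a common readout of mTOR activity, had 567 TPM in replicate 1 and 568 TPM in replicate 2. Rps28 and Rps6 had 24.1% and 47.9% of their summed reads in copies. Among the proteins made as fusions to ubiquitin or a ubiquitin-like protein, Rps27a averaged 923 TPM (SD 9.62), against 581 TPM (SD 16.9) for Fau. Rack1, a scaffold on the head of the small subunit, averaged 731 TPM (SD 2.15).

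Rpl38 and Rpl24 are the genes of the mouse mutants Tail short and Belly spot and tail, which have patterning and skeletal defects. Rpl38 had 976 TPM in replicate 1 and 961 TPM in replicate 2, and Rpl24 had 651 and 649. The 13 genes listed for human Diamond-Blackfan anaemia, a failure of red cell formation, had a median of 854 ± 4.16 TPM (SD, n = 2), with Rps19, the gene most often mutated, highest at 1807 TPM. Rps29 averaged 1186 TPM, Rps24 882 TPM, Rpl35a 873 TPM, Rps10 754 TPM, Rps7 460 TPM, Rpl11 423 TPM and Rpl15 370 TPM. Rpl5 alone was lowest at 85.0 TPM, and the 13 genes covered a 21.3-fold range. The 4 X-linked genes were Rpl10 (691 TPM), Rps4x (622 TPM), Rpl36a (420 TPM) and Rpl39 (412 TPM), all below the canonical median of 777 TPM. With copies, Rpl10 came to 1070 TPM, above the median of 953 TPM of the canonical sums, while the other X-linked genes stayed below it.

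For the members alone, the median levels of the large and the small subunit differed by less than the spread of the libraries. The large-subunit genes had a median of 773 TPM (SD 23.9) and the small-subunit genes 781 TPM (SD 2.63). The difference of the median log2 levels, large minus small, was -0.04 in replicate 1 and 0.01 in replicate 2, a mean of -0.01 ± 0.04 (SD, n = 2). With copies added it was -0.11 ± 0.01, and with means in place of medians -0.31 ± 0.01 without copies. The 4 lowest canonical genes (Rpl5, Rpl27a, Rpl12 and Rpl37) are of the large subunit, and the range within it was 36.4-fold, against 8.39-fold in the small subunit. With copies added, the large-subunit sums ran between 311 TPM (Rpl22) and 3095 TPM (Rpl41), a 9.95-fold range. Small-subunit sums ran between 472 TPM (Rps20) and 2437 TPM (Rps29).

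Paralogues fell into 2 kinds. Rpl3l and Rpl10l had no count in either library. Rpl3l, known from heart and skeletal muscle, was at least 7612-fold lower than Rpl3 in replicate 1 and at least 7191-fold lower in replicate 2, with the floor set at 3 counts per library. Rpl10l, known from the testis, was at least 5801-fold lower than Rpl10 in replicate 1 and at least 5386-fold lower in replicate 2. Rpl39l, also known from the testis, had 1 count in each library, which put it 8059-fold (95% Poisson interval 1446 to 318320) below Rpl39 in replicate 1 and 4636-fold (832 to 183097) below it in replicate 2. These bounds and intervals cover counting error only.

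The remaining paralogues were well expressed. Rpl22l1 had 287 TPM in replicate 1 and 298 TPM in replicate 2, against 306 and 313 TPM for Rpl22, a log2 ratio of -0.08 ± 0.01 (SD, n = 2). The pair is known from mouse studies in which Rpl22 protein holds down Rpl22l1. Their coding sequences are 70.8% identical, and both had under 3% of their reads in copies. The first 90 bases of the longest gap-free stretch of their alignment show how the difference is spread, with capitals where Rpl22l1 differs from Rpl22.
Rpl22, chromosome 4, coding bases 175 to 264: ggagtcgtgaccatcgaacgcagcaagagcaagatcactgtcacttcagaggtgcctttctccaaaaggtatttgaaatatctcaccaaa
Rpl22l1, chromosome 3, coding bases 154 to 243: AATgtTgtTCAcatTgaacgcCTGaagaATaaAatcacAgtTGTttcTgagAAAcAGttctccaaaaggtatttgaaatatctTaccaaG
The stretch has 26 differences, and most lie in its first part.

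Rpl7l1, a nucleolar relative of Rpl7, had 185 TPM in replicate 1 and 197 TPM in replicate 2, against 1164 and 1213 TPM for Rpl7, a 6.22-fold lower level (log2 ratio -2.64 ± 0.02). Its reads were closer in number, 12862 against 21879 in replicate 1, over a longer model. Rps27l was higher than Rps27 alone, with a log2 ratio of 0.92 ± 0.17, but lower than Rps27 with its copies, at -0.75 ± 0.09. The direction of that pair therefore depends on whether Rps27rt is counted with Rps27. Rpl36al, an autosomal gene outside the rule, had 505 TPM in replicate 1 and 519 TPM in replicate 2, against 407 and 432 TPM for the X-linked Rpl36a (log2 ratio 0.29 ± 0.03). Rps4l, annotated as a transcribed pseudogene, averaged 141 TPM, against 622 TPM for Rps4x. In all, the first gene was lower in both libraries in 6 of the 8 pairs, and Rps27l and Rpl36al were the exceptions.

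**Figure D3:**
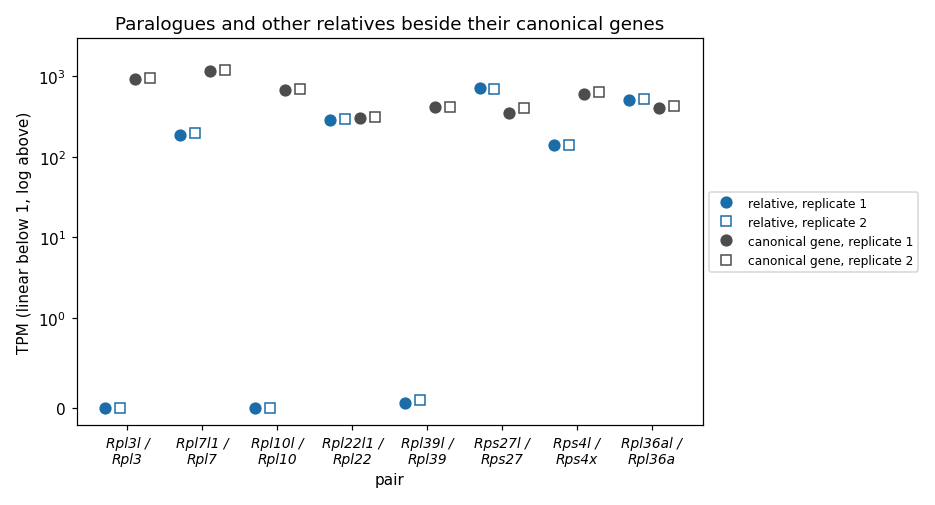
TPM (linear below 1, log above) for 8 pairs, with the paralogue or other relative (blue) left of its canonical gene (grey) and replicate 1 filled, replicate 2 open. Rpl3l, Rpl10l and Rpl39l sit at or near 0, while Rps27l and Rpl36al lie above the gene alone. Summed over all transcripts, coding or not, Rpl22l1 is level with Rpl22.

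Most canonical genes had several annotated transcripts, 57 against 20 with a single one. Over the 57, the leading transcript held a median of 82.8% ± 1.37 of the gene's TPM (SD, n = 2), and the same transcript led in both libraries in all 57. It held over 95% in 14 genes, Rps24 among them (97.8% in replicate 1 and 97.4% in replicate 2), and under 75% in 21. Those 21 were Rps19, Rps14, Rps18, Rpl7, Rpl38, Rpl13a, Rpl35a, Rpl29, Rps10, Rps28, Rps3, Rps15a, Rpl23, Rpl11, Rpl31, Rpl15, Rpl28, Rpl27, Rpl10a, Rpl12 and Rpl5. Rpl13a was the most divided, with 29.1% and 31.4% in its leading transcript, and Rpl15 followed with 37.3% and 38.3%. In GENCODE M21 the leading transcript is classed as protein-coding in 51 of the 57 genes. It is classed as a retained intron in Rpl5 and Rps20, as a target of nonsense-mediated decay in Rpl12, and as a processed transcript in Rpl23 and Rpl35. The leading transcript of Rpl13a has no entry in that release, which is later than the one used for the tables. Of the divided genes, Rpl5, Rpl12, Rpl15, Rpl27 and Rpl28 had more reads in copies than of their own. How reads shared with copies affect these transcript shares was not tested.

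Introns of ribosomal protein genes are known hosts of small nucleolar RNAs, which guide modification of ribosomal RNA. On the strand of their host, 58 snoRNA genes lay within 30 members, up to 5 in a single gene (Rpl4). They had a median length of 91.5 bases, and only 23 of the 58 rows had an effective length above 0. The rows held 136 expected counts in all in replicate 1 and 134 in replicate 2. The stated RNA size range above 200 bases excludes molecules of this length, so nothing follows about their level. The members themselves lie on 19 chromosomes, 14 of them on chromosome 7. Rpl3l, without a count, lies 5890 bases from Rps2 on chromosome 17.

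Between the 2 pools the members varied little. Averaging at least 50 counts, 80 members were compared, and 0 were past 1.2-fold in either direction, against 14.3% of the 13842 genes tested in the same way, 9.06% higher in replicate 1 and 5.21% higher in replicate 2. Genes with many reads differ less in general: of the 2116 genes at or above the mean TPM of Rpl5, 1.56% were past 1.2-fold, so that an absence among 80 is close to this background. Only the 3 nearly silent paralogues did not reach the count minimum. The median log2 ratio of the members, replicate 1 over replicate 2, was -0.02, with quartiles of -0.05 and 0.01, and that of all tested genes was -0.00202. By this ratio 29 of the 80 members were higher in replicate 1 and 51 in replicate 2, against 6831 and 7011 of all tested genes. In TPM the split was 18 and 62 for the members, against 6168 and 7601 for all tested genes.

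The members farthest apart, Rps27 and Rps12, are among those with most reads in copies. Rps27 had 1499 expected counts in replicate 1 and 1556 in replicate 2, a log2 ratio of -0.19 (95% exact binomial interval -0.29 to -0.09). Rps12 had 2437 and 1966, a log2 ratio of 0.17 (0.09 to 0.26). Rpl11 followed at -0.11 (-0.16 to -0.06), then Rpl23, which had no copy at 1 TPM or more, at -0.10 (-0.14 to -0.07). The intervals, which cover counting error only, excluded 0 for 30 of the 80 members, against 34.4% of all tested genes and 43.8% of those at or above the mean TPM of Rpl5, so the members' share is near the background. The common biological coefficient of variation of the 2 libraries was 6.59% over 16637 genes. Erythroid and neuronal transcripts differed more: all 11 erythroid markers were higher in replicate 1, summing to 24833 TPM, against 18161 TPM in replicate 2, and all 4 neuronal markers were higher too, at 279 against 210 TPM. Their part in the small shift of the members was not tested.

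**Figure D4:**
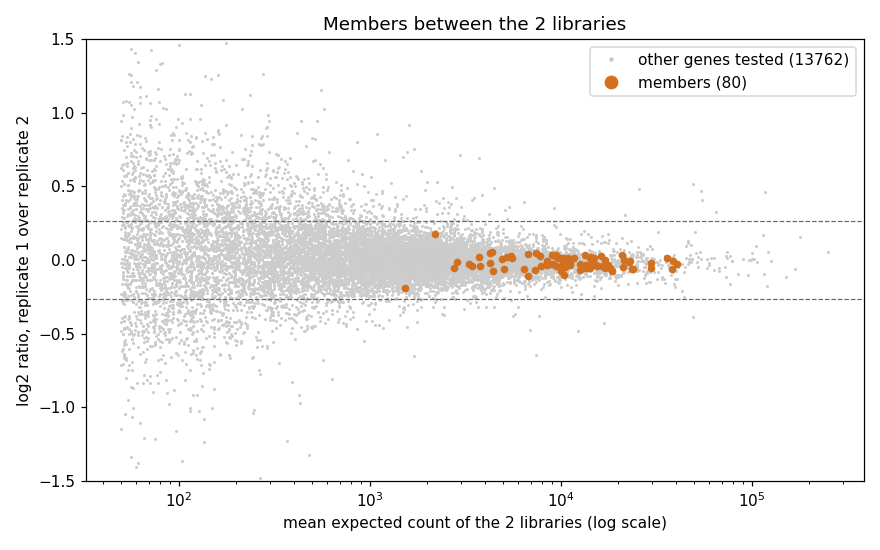
Log2 ratio of replicate 1 over replicate 2 against the mean expected count (log scale) for the 80 members (orange) and the other tested genes (grey), with dashed lines at 1.2-fold and 18 tested genes beyond the plotted range. All members lie between the lines, and Rps12 and Rps27 are the members nearest to them.

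Among related gene groups, the mitochondrial ribosomal proteins, which serve the organelle's own ribosomes, had a median of 101 ± 2.31 TPM (SD, n = 2), against 777 TPM for the canonical cytosolic genes. All 77 were expressed, led by Mrpl42 (317 TPM), Mrps21 (308 TPM) and Mrpl17 (289 TPM). The 21 other genes of TOP mRNAs had a median of 489 ± 4.24 TPM, with the elongation factor Eef1a1 (3453 TPM) highest, followed by Hnrnpa1 (1626 TPM) and Npm1 (1346 TPM). Between the libraries 0 of these 77 and 0 of these 21 genes were past 1.2-fold, against 14.3% of all 13842 genes tested. Of the genes at or above the mean TPM of Rpl5, 1.56% were. The mitochondrial genes reach below that level, down to 19.5 TPM.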

How the data were processed

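Total RNA from pooled forebrains, in a stated size range above 200, was measured in 2 libraries of 1 group. Per the file headers, the authors deposited for genes and transcripts an expected count, without normalization, and TPM, which sums over all rows including spike-ins. Per the file headers, the gene tables add a posterior SD and interval, and the transcript tables the percent that each transcript has of its gene. The deposited notes name mm10 and annotation M4. The sources used here give no aligner or quantifier. Whether the pools came from separate litters is not stated, so the spread between libraries may be partly technical.

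Gene symbols, classes and 1-based coordinates came from GENCODE M21 on GRCm38, and promoter windows from RefSeq. Members and lists were chosen with earlier results of these data known. Named genes were the lists by function, the pairs, the 10 highest and 10 lowest canonical genes, the 5 highest ratios of posterior SD to the square root of the count, genes with a leading transcript under 75%, and the 3 highest of each comparison list. Some genes that this rule takes in are left out of the text and the labelled plots, and stay in the counts and medians. Copies named with their values were chosen after those were seen.

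Levels were compared as log2(TPM + 0.1). Ratios between libraries used expected counts plus 0.5 over TMM-scaled totals (edgeR 4.0.16, counts rounded for the TMM factors, 1.00 and 0.997) for genes averaging at least 50 counts, and 1.2-fold is a size, not a test. Copies were found with BLAST 2.17.0, protein-coding ones only where the match covered 30% of the transcript. The steps were tested on simulated data. Alternatives were DESeq2 1.42.0 size factors, other pseudocounts, estimates and filters, and, chosen after seeing the data, the addition of copies.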

Additional observations from a re-analysis of the deposited data

How the results depend on the processing

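No paired analysis was possible because there is 1 group. The share of TPM held by members (6.40%) was 6.26% by posterior mean TPM, 7.04% over nuclear genes, 2.59% of expected counts, 6.28% for canonical genes alone, 7.06% with rows named as pseudogenes of a member, 8.10% with copies and 8.09% with copies at 95% identity and 80% coverage. It lay between 6.32% and 6.47% in single libraries. The large-minus-small difference (-0.01) was -0.078 in CPM, -0.31 with means, -0.17 with paralogues, -0.11 with copies, -0.12 with stricter copies and -0.10 with the copies' reads at the member's length. It ranged between -0.042 and 0.014 in single libraries, so without replicate 1 it changed sign. The spread of canonical genes (0.918) was 0.916 with a pseudocount of 1, 0.917 by posterior mean TPM, 0.991 in CPM, 0.936 without short genes, 0.618 with copies, 0.619 with stricter copies and 0.641 with the copies' reads at the member's length, and 0.918 in single libraries. The log2 ratio of Rps27l over Rps27 turned to -0.75 with copies. Of the other settings of single pairs, 35 stayed within the spread of the libraries and 20 moved with no change of direction. The median ratio between libraries (-0.024) was -0.0155 by library totals and -0.0357 in TPM. The start motif, at 22.8%, was at 59.6% within 10 bases and at 17.5% with 6 or more pyrimidines after the C. The other settings of these summaries moved a value by less than its spread, and a count by less than 1.5 times. The count of members past 1.2-fold stayed at 0 in every setting. The pairs lower in both libraries numbered 6, or 7 with copies. Where not stated, the cause was not tested. Depth limits Rpl3l, Rpl10l and Rpl39l, and short models and shared reads limit the members with copies.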
